A study of Homo sapiens with 6 samples.

Results

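The genes described here encode the proteasome: its alpha and beta core subunits, the ATPases, base and lid of its regulatory cap, its activators and inhibitor, its assembly factors, and NFE2L1, a transcription factor of proteasome genes. They were chosen by symbol as protein-coding genes named PSMA to PSMG with a number, plus POMP, ADRM1, NFE2L1 and SEM1, with pseudogenes left out. Of the 52 genes listed under these names, 51 matched a row among the 57820 genes of the count table, and PSMB3 matched none by the names used here. RNA was measured in HEK293 cells, an established line of human embryonic kidney origin, cultured for 12 h in 100 µM minocycline, or in the DMSO (dimethyl sulfoxide) vehicle alone. All cells were kept without heat shock, and each group had 3 libraries of total RNA that the series calls biological replicates. Minocycline belongs to the tetracyclines, antibiotics that block bacterial ribosomes and can also act on those of mitochondria. The libraries are called control 1 to 3 and minocycline 1 to 3, and the number is also the batch in the labels.

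The proteasome degrades proteins tagged with ubiquitin. Its barrel-shaped core is built of rings of alpha subunits around rings of beta subunits, and 3 of the beta subunits, PSMB5, PSMB6 and PSMB7, carry the proteolytic sites. A cap with ATPases, ubiquitin receptors and a deubiquitinase feeds substrates into the core, and when proteasome activity is short, NFE2L1 is known to raise transcription of the subunit genes.

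Total counts per library were 17303180 to 17835756. Of the 7 HEK293 markers listed, 5 matched a row and had 48 to 17334 counts in each library. Among 7 matched markers of blood, fibroblast, endothelial and liver cells, COL1A1 had up to 1428 counts and the other 6 had at most 4 in any library. Control 1 stood apart from the other vehicle libraries. A chi-square test over genes gave 47.9 per degree of freedom between controls 1 and 2 and 70.7 between controls 1 and 3. Controls 2 and 3 gave 6.19, and the pairs of minocycline libraries gave 9.83 to 25.1. The first principal component of log CPM, the main axis of spread between libraries, held 52.9% of the variance. On it control 1 lay at -34.9, minocycline 1 to 3 at -14.0, -32.3 and 3.06, and controls 2 and 3 at 31.1 and 47.1. Control 1 thus lay on the side of minocycline 1 and 2. Results that rest on control 1 are therefore given with and without it. As control 1 was singled out from these same counts, results without it describe only how far they depend on it.

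Of the 51 genes, 47 passed the filter on low counts and were tested, and PSMA8, PSMB8, PSMB9 and PSMB11 did not. Levels are given as CPM, counts scaled with TMM factors to a common library size. Comparisons between genes use CPM per kilobase of the canonical mRNA of the GENCODE annotation (RPKM). On this per-length scale the constitutive beta subunits had the highest median of the groups, 211 RPKM over 6 genes, and they also did when all annotated exon bases of a gene were taken as its length (118 RPKM). PSMB4 and PSMB1, beta subunits without a catalytic site, were at 316 and 305 RPKM, the alpha subunit PSMA7 at 268 and SEM1, a small acidic lid protein, at 244. The ranges of these 4 genes over the 6 libraries overlapped, though PSMB4 was above PSMA7 in every single library by canonical length. Their order rested on the length used. Over all exon bases PSMA7 was at 147 RPKM, PSMB4 at 137 and PSMB1 at 122, and SEM1 was at 10.5, so that the level of SEM1 per length is uncertain.

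**Figure D1:**
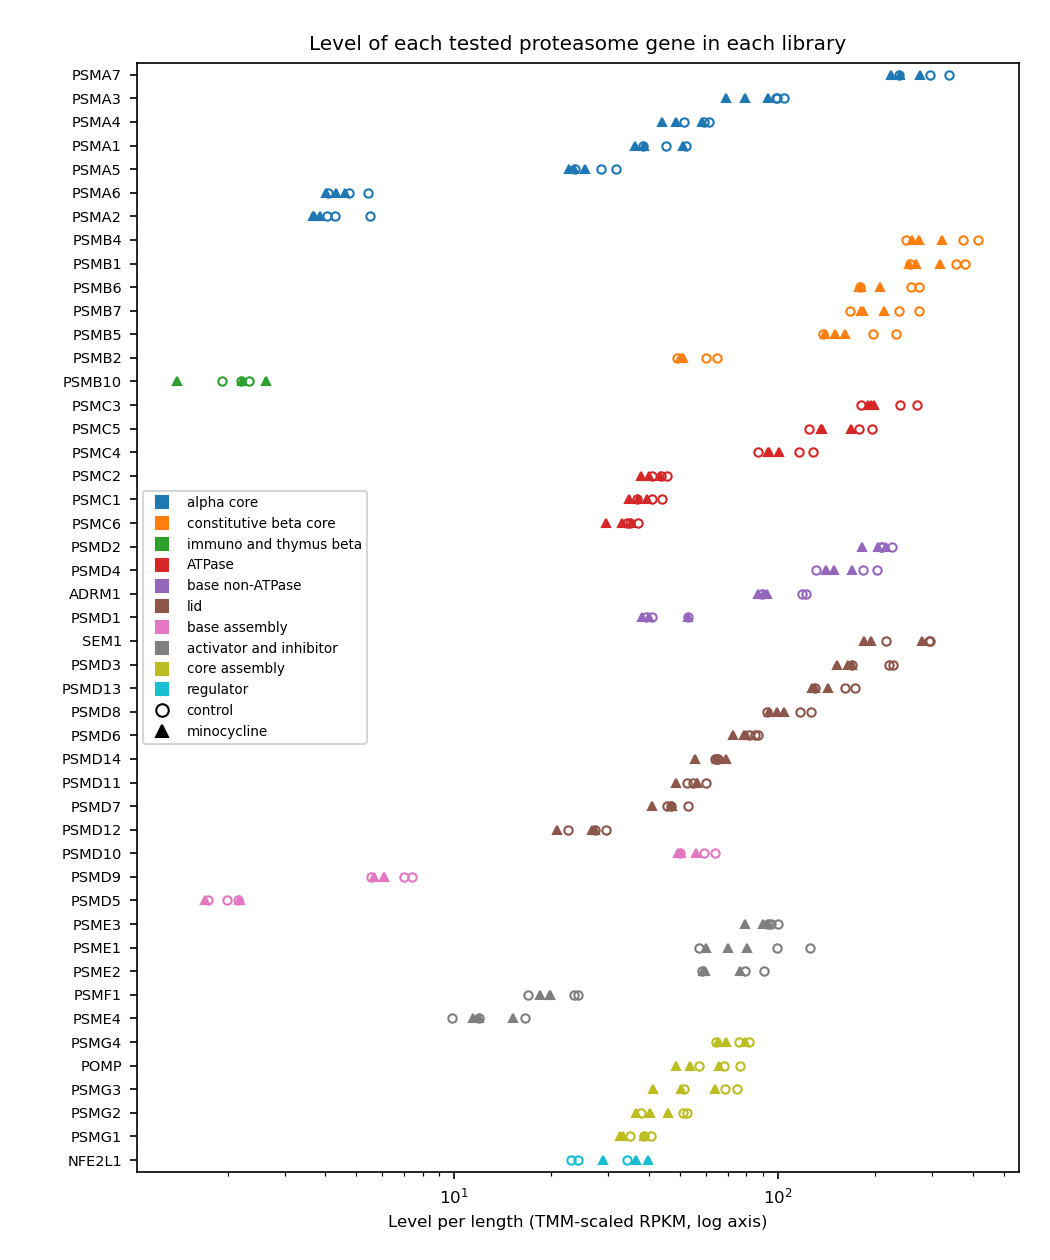
Level per length of the 47 tested proteasome genes (RPKM on a log axis), with 1 open circle per control library and 1 filled triangle per minocycline library, coloured by role. All beta core genes but PSMB2 (54.2 RPKM) lie toward the right, with PSMB4 at a mean of 316 RPKM. PSMB2 has the longest canonical mRNA of the beta core genes, 4426 bases. PSMA2, PSMA6 and PSMB10 lie far to the left of their ring partners.

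The subunits of one ring are needed in equal number, but the levels per length of their transcripts were far from equal. Alpha subunits had a median of 43.6 RPKM and ran from 4.18 RPKM for PSMA2 to 268 for PSMA7. The canonical mRNA lengths behind these levels differed too, from 955 bases for PSMA3 to 4378 for PSMA4. PSMA2 had 93 to 131 counts per library and PSMA6 had 70 to 102, whereas PSMA4 had 3520 to 4462. Both genes share sequence with another annotated gene. Of all stretches of 100 bases in the canonical PSMA2 mRNA, 100% also occur in transcripts of the gene ENSG00000256646, and 80.8% of those of PSMA6 occur in other genes, most of them in ENSG00000258790. The same share was 55.2% for PSMA1 (43.6 RPKM), 40.0% for PSMB10 (2.12 RPKM) and 26.1% for PSMC1 (38.8 RPKM), and it was under 16% in every other gene of the set. The sources used here do not say how reads that match more than 1 gene were counted. The levels of PSMA2, PSMA6, PSMA1 and PSMB10 are therefore uncertain, and the part of shared sequence in them was not tested. Use of strand in counting was not given either. PSMC1 shares 76.1% of its annotated exon bases with NRDE2 on the opposite strand, and NRDE2 had a mean of 742.5 counts. The 46 rows named as pseudogenes of these genes held 92 to 138 counts per library in sum, and 23 of them were at 0 in all 6.

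After interferon, the catalytic beta subunits are replaced by PSMB8, PSMB9 and PSMB10. PSMB10 had 42, 36 and 31 counts in controls 1, 2 and 3 and 47, 25 and 38 with minocycline, against 3034 to 4450 for its constitutive partner PSMB7. At 2.12 RPKM against 209, PSMB10 was listed far below PSMB7 in every library, and its groups overlapped (log2 fold change -0.05 ± 0.30 (SE), adjusted p = 0.969 in edgeR's quasi-likelihood test). PSMB8 and PSMB9 were listed at 0 in all 6 libraries. These adjoining genes lie on chromosome 6 at 32808494 to 32812456 and 32811913 to 32827628 (GRCh37). Within 1 Mb on each side of them, 26 of 75 protein-coding genes were at 0 in all 6 libraries, compared with 10.0% of all protein-coding genes, and 45 had at most 10 counts in sum. TAP1, the peptide transporter gene next to PSMB9, was also at 0, as was TUBB, a tubulin gene that dividing cells use, which lies farther out at 30685212. BAK1, on the other side at 33540324, had 1183 to 1460 counts. TAP2, which ends at 32806516 next to PSMB8, was not at 0 and had 5 to 19 counts per library. TAPBP, at 33267471, had 1 to 8. For counting error alone a 0 allows up to 3 counts, or 0.163 to 0.181 CPM, but in this region it cannot be read as a low level of PSMB8 or PSMB9. TUBB, TAP1, TAP2, TAPBP and BAK1 were chosen once their counts were known. The tissue-restricted subunits were near 0: PSMB11 of the thymus had 0 to 2 counts, and PSMA8, a testis paralog of PSMA7, had 1 count in control 3 and 0 elsewhere.

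The samples allow 1 comparison, which asks how transcript levels with minocycline differed from those with vehicle alone. With the drug, 44 of the 47 tested genes had a lower fitted level and 3 had a higher one, PSMD5, PSME4 and NFE2L1, where 47.9% of all 17225 genes tested had a lower one. The median log2 fold change was -0.18 over the 47 genes and 0.01 over all genes tested. No proteasome gene passed a Benjamini-Hochberg adjusted p of 0.05 in edgeR's quasi-likelihood test, in which 0.0522% of all genes passed, all of them higher. The smallest adjusted p of the set was 0.820, and DESeq2, which called 0.302% of all genes, and limma-voom, which called 0.0639%, also called 0 of these genes. At an unadjusted p under 0.05 there were 2 of 47, PSMA3 and PSMD3, both with a lower fitted level, compared with 4.7% of all genes in either direction and 1.97% with a lower one. In 4 of 47 genes all minocycline libraries lay below all control libraries (PSMA2, PSMA3, PSMD6 and PSME3), an order found in 3.56% of all genes, and in none of the 47 did they all lie above, compared with 5.74%. These genes were measured in the same libraries and shared much of their spread between them, so that their common sign is not 44 separate observations.

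**Figure D2:**
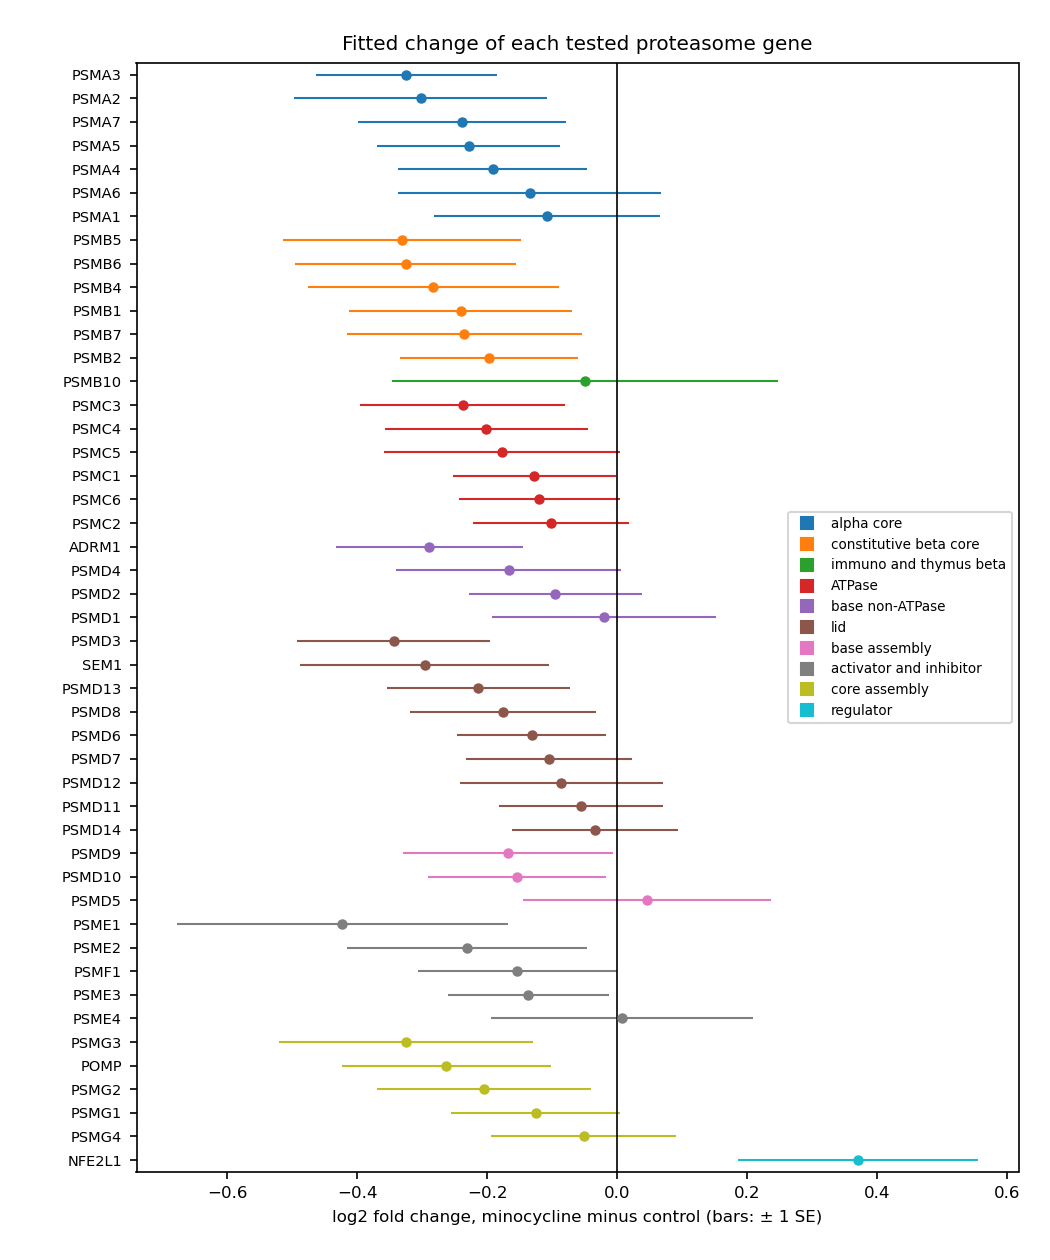
Fitted log2 fold change of each tested proteasome gene, minocycline minus control, with bars of ± 1 SE, grouped and coloured by role (n = 3 libraries per group). The points of 44 genes lie left of 0, between -0.42 for PSME1 and -0.02 for PSMD1, and NFE2L1 lies farthest right at 0.37.

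Among the core genes the differences were of similar size in both rings. All 7 tested alpha genes had a lower fitted level, with a median log2 fold change of -0.23. PSMA3 (ENSG00000100567.8, chromosome 14, 58711561 to 58738730, plus strand, GRCh37) encodes an alpha subunit. It had 94.4, 100.1 and 94.7 CPM in controls 1, 2 and 3 and 66.1, 75.9 and 89.0 CPM in minocycline 1, 2 and 3. Its groups did not overlap, and the log2 fold change was -0.32 ± 0.14 (SE, adjusted p = 0.820 in edgeR). For PSMA7, which had the highest per-length level of the alpha genes, the controls were at 228, 284 and 326 CPM and the minocycline libraries at 230, 215 and 266. Control 1 thus lay among the minocycline libraries (-0.24 ± 0.16).

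The 6 tested constitutive beta genes had a median of -0.26, the lowest of the groups with several genes, and none had separated groups. PSMB5 carries the chymotrypsin-like site, PSMB6 the caspase-like site and PSMB7 the trypsin-like site. PSMB5 had 144, 206 and 241 CPM in the controls and 156, 146 and 168 CPM with minocycline (-0.33 ± 0.18). Values for PSMB6 were 148, 212 and 225 CPM against 147, 149 and 171 (-0.33 ± 0.17), and for PSMB7 they were 165, 234 and 269 CPM against 181, 177 and 209 (-0.24 ± 0.18). In each of these 3 genes control 1 was among or below the minocycline libraries, while controls 2 and 3 lay above all of them. PSMB4 had the same order of control 1 and the others, with 229, 344 and 383 CPM in the controls and 251, 238 and 296 CPM with minocycline (-0.28 ± 0.19).

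In the cap, the 6 ATPase genes, whose products unfold substrates and open the core, all had a lower fitted level (median -0.15). PSMC3 was the highest of them per length at 212 RPKM. It had 279, 367 and 414 CPM in the controls and 300, 293 and 306 CPM with minocycline (-0.24 ± 0.16). The minocycline libraries were closely alike, and the spread lay among the controls. The 4 other genes of the base had a median of -0.13. ADRM1, a ubiquitin receptor, had 124, 164 and 168 CPM in the controls and 128, 120 and 125 CPM with minocycline (-0.29 ± 0.14). PSMD2, a large scaffold subunit and the highest of these 4 genes per length at 208 RPKM, had 611, 609 and 658 CPM against 596, 632 and 530 CPM (-0.10 ± 0.13). PSMD1, another scaffold, differed in its library pattern. It was high in control 1 (175 CPM) and minocycline 2 (176 CPM) and between 127 and 135 CPM elsewhere (-0.02 ± 0.17).

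All 9 lid genes had a lower fitted level, with a median of -0.13 and a range of -0.34 to -0.03. PSMD3 (ENSG00000108344.10, chromosome 17, 38137060 to 38154212, plus strand, GRCh37), a structural lid subunit, had 363, 475 and 488 CPM in the controls and 365, 353 and 328 CPM with minocycline. Control 1 was below minocycline 1 by a small margin, and the groups overlapped by that pair alone (-0.34 ± 0.15, adjusted p = 0.820 in edgeR). SEM1 had 99.2, 135 and 136 CPM against 84.4, 89.0 and 128 CPM (-0.30 ± 0.19), where minocycline 3 was close to controls 2 and 3. PSMD14, the deubiquitinase of the lid, had a nearly even level in the controls, at 100.2, 102 and 102 CPM. With minocycline it had 86.8, 102 and 109 CPM (-0.03 ± 0.13).

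Sequences before the gene starts are shown as a description. NFE2L1 is known to bind, with small MAF proteins, the antioxidant response element. RefSeq windows of 250 bases before to 50 bases after the start (GRCh38.p14) were found for 45 of the 51 genes. The letters TGACNNNGC, searched on both strands, occurred in 28.9% of these 45 windows and in 13.6% of all 27305 windows of the same length. CCGGAAG, the core of many ETS family sites, occurred in 31.1% against 10.7%, CCAAT in 44.4% against 35.7%, and TGATGNAA, letters of the ATF4 element, in 2.22% against 3.67%. No overlap between motifs was removed. The windows of all genes were not matched to those of this set in base composition or level. A match is a description of letters and not a bound site. A link of these letters to the levels in the libraries was not tested. TGACNNNGC matched in 13 of the 45 windows, and only some of these genes are shown. The following windows, read along the strand of the gene, show a match in capitals. They are from the receptor gene ADRM1, the lid genes PSMD3 and PSMD12, the assembly factor gene PSMD5 and the activator genes PSME1 and PSME4.
ADRM1: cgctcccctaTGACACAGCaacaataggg
PSMD3: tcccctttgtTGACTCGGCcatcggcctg
PSMD12: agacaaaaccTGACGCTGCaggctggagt
PSMD5: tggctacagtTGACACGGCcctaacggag
PSME1: atggcagggcTGACCCCGCctcctccatc
PSME4: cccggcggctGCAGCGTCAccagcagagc
The fitted changes of the genes shown ran from -0.42 for PSME1 and -0.34 for PSMD3 to 0.01 for PSME4 and 0.05 for PSMD5. The whole window of PSMD3, chr17:39980557-39980856 on the plus strand, holds a pair of matches in capitals.
PSMD3 promoter: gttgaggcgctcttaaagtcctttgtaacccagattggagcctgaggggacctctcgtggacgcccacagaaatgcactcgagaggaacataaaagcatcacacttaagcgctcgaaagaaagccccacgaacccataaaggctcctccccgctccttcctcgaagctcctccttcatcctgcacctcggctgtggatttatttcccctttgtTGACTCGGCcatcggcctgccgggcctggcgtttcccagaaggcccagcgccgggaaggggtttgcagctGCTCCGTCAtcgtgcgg
For PSMA3 the window chr14:58244593-58244892 on the plus strand had no TGACNNNGC and is shown with its CCAAT letters, read on either strand, in capitals.
PSMA3 promoter: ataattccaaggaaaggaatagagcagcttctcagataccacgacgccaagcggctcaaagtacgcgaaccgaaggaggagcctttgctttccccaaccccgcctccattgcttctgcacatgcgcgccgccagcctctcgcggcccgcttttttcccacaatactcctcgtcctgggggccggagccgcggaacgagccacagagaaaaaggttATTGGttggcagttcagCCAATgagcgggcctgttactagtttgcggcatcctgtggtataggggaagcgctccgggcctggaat

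Activators bind the ends of the core in place of the cap. PSME1 and PSME2 form an activator that interferon induces, and PSME1 had the most negative fitted change of all 47 genes (-0.42 ± 0.26). Its levels were 55.0, 95.8 and 122 CPM in the controls and 67.5, 57.8 and 77.8 CPM with minocycline. The lowest and the highest library were thus both controls. PSME2, its neighbour on chromosome 14, had 46.4, 62.9 and 71.9 CPM against 47.4, 46.5 and 60.5 CPM (-0.23 ± 0.18). PSME3, the nuclear activator, had separated groups by a margin lost in rounding, with 296 to 318 CPM in the controls and 253 to 296 CPM with minocycline (-0.14 ± 0.12). PSME4, a large activator protein of the nucleus, had 120, 86.7 and 71.4 CPM in the controls and 86.4, 111 and 83.0 CPM with minocycline. Its order among the controls was the reverse of that of PSME1, and its fitted change was 0.01 ± 0.20. PSMF1, an inhibitor of the core in the test tube, had a fitted change of -0.15 ± 0.15.

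The 5 assembly factors of the core had a median of -0.21. POMP, which is degraded by the first core it helps to complete, had 76.4, 91.5 and 102 CPM in the controls and 64.9, 71.9 and 88.1 CPM with minocycline (-0.26 ± 0.16). Among the chaperones that build the alpha ring, PSMG3 had 73.5, 98.0 and 107 CPM against 72.0, 58.7 and 91.7 CPM (-0.32 ± 0.20), and PSMG4 had a fitted change of -0.05 ± 0.14. In both POMP and PSMG3 the groups overlapped. Of the chaperones of the base, PSMD10 was at 54.7 RPKM, PSMD9 at 6.30 and PSMD5 at 1.99, with fitted changes of -0.15 ± 0.14, -0.17 ± 0.16 and 0.05 ± 0.19.

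NFE2L1 had the largest positive fitted change of the set. The gene (ENSG00000082641.11) spans 46125691 to 46138907 of chromosome 17 in GRCh37, plus strand. It had 166, 117 and 111 CPM in controls 1, 2 and 3 and 193, 177 and 140 CPM in minocycline 1, 2 and 3. Control 1 lay above minocycline 3, and both other controls lay below every minocycline library. The log2 fold change was 0.37 ± 0.18 and did not pass (adjusted p = 0.820 in edgeR). In batches 1, 2 and 3, each with 1 control and 1 minocycline library, the log2 difference of NFE2L1 was 0.22, 0.59 and 0.33. Its window chr17:48048109-48048408 on the plus strand (GRCh38.p14) had no TGACNNNGC and 5 CCAAT matches, shown in capitals.
NFE2L1 promoter: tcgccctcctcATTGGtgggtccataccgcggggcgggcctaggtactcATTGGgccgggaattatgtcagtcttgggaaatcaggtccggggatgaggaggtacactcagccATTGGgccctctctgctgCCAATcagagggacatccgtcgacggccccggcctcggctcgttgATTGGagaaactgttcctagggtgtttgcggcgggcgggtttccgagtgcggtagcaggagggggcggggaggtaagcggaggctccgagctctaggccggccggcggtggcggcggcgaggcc

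**Figure D3:**
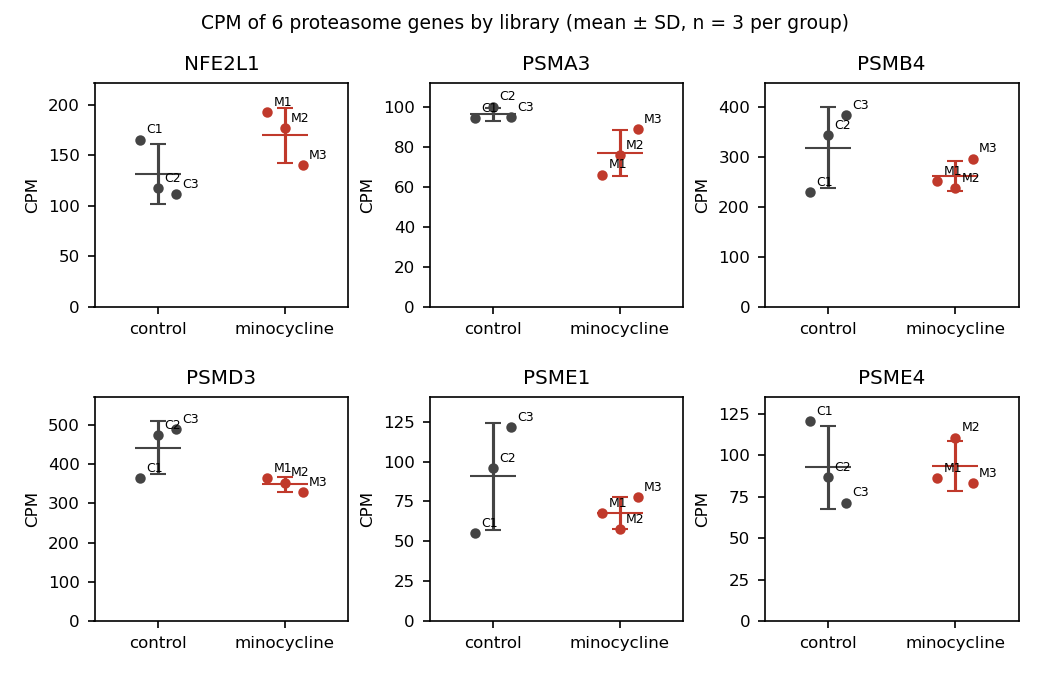
CPM of NFE2L1, PSMA3, PSMB4, PSMD3, PSME1 and PSME4 in each library, labelled C1 to C3 and M1 to M3, with the mean and SD of each group (n = 3). Groups are separated for PSMA3, from 94.4 CPM upward against 89.0 CPM downward, while in the other 5 genes the groups overlap.

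The order of the libraries was shared by most of the set and crossed the groups. Control 3 had the highest level of the 6 libraries in 33 of 47 genes. The lowest level fell in minocycline 1 for 18 genes and in control 1 for 14, and among the 3 controls alone control 1 was lowest in 38 of 47. Summed over the constitutive beta genes, the level was 1130, 1578 and 1743 CPM in the controls and 1197, 1163 and 1347 CPM with minocycline. Over the ATPases it was 950, 1186 and 1286 CPM against 966, 981 and 1074 CPM, and over the lid 1455, 1667 and 1700 CPM against 1362, 1415 and 1436 CPM. Beta and ATPase sums in control 1 were thus below all minocycline libraries, and the lid sum in control 1 was just above them. Taken by batch, the median log2 difference of the 47 genes was -0.02, -0.32 and -0.22, and that of the beta genes was 0.09, -0.49 and -0.37, so that batch 1, which holds control 1, did not show the lower level of the beta genes.

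**Figure D4:**
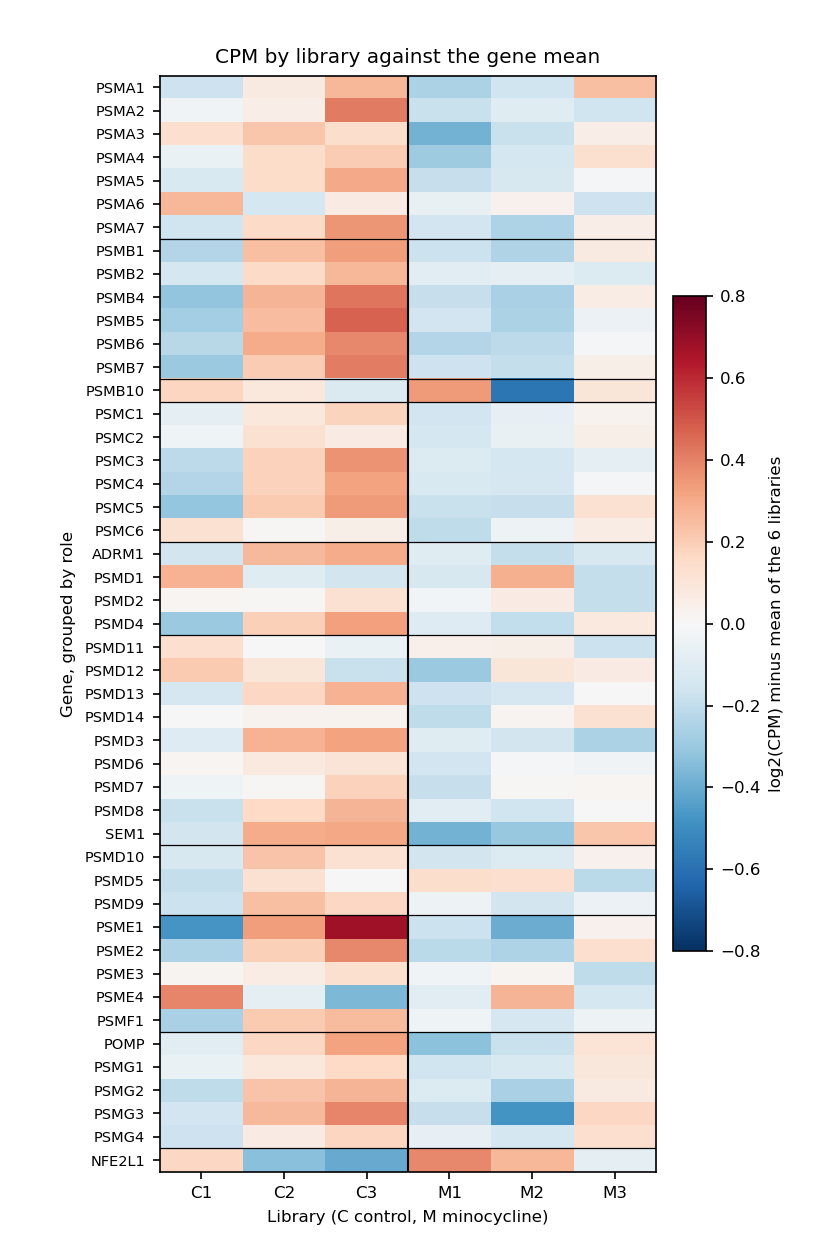
Level of each tested proteasome gene in each library as log2 CPM minus the mean of the 6 libraries (colour scale), with genes grouped by role and controls left of the vertical line. Beta genes are high in C2 and C3, and C1 is the lowest library in 4 of 6 of them. In alpha genes M1 is the lowest in 5 of 7, and in ATPase genes C1 and M1 in 3 of 6 each. PSMD1, PSME4 and NFE2L1 are high in C1.

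The gap between control 1 and the other controls went with the length of the mRNA. For the 23 genes with a canonical mRNA under 1500 bases the median log2 ratio of control 1 to the mean of controls 2 and 3 was -0.45, for the 12 genes of 1500 to 3000 bases it was -0.27, and for the 12 longer genes it was -0.14. Spearman's rho between length and this ratio was 0.50 over 47 genes, which share these libraries and are not independent. The ratio also went with base composition, with a rho of -0.42 against the GC content of the mRNA. The ends of this range were PSME1 at -0.98 and PSME4 at 0.61, and PSMF1 with a long mRNA went against it at -0.49. All protein-coding genes tested had a similar gap at short length, with a median of -0.53 over 1741 genes under 1500 bases, -0.22 over 4181 genes of 1500 to 3000 bases and 0.24 over 7684 longer genes. In the treatment comparison, the median log2 fold change was -0.24 for the short proteasome genes and -0.22 for all short protein-coding genes. At 1500 to 3000 bases these medians were -0.15 and -0.07, and above 3000 bases they were -0.11 and 0.07. The part of this length pattern in the treatment difference was not tested.

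**Figure D5:**
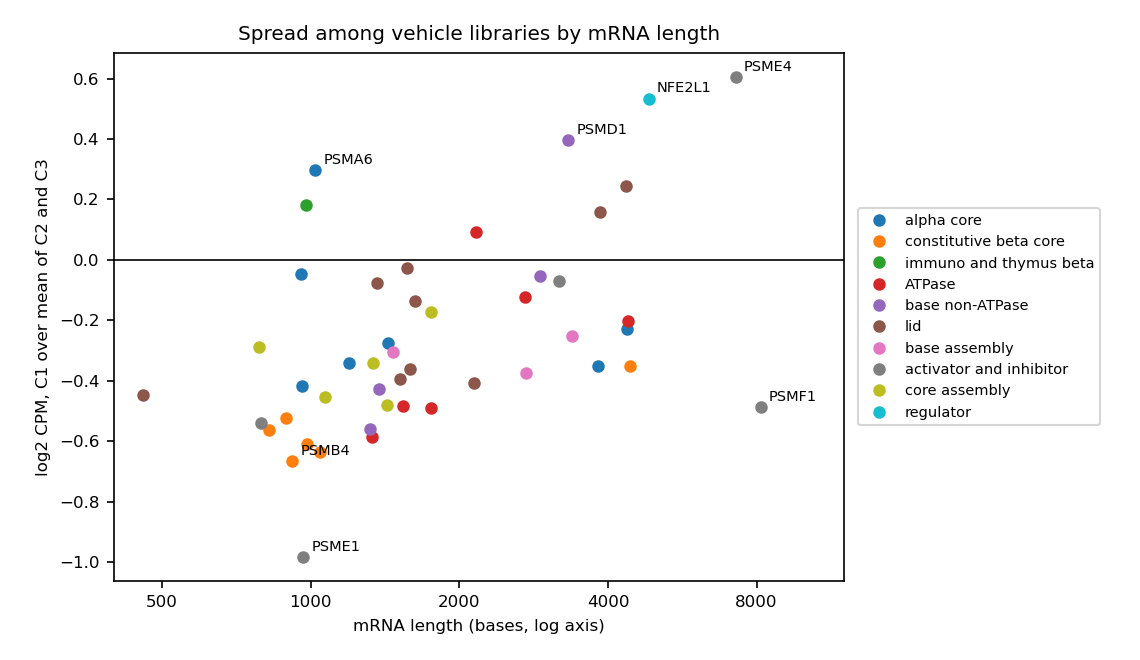
Log2 ratio of the level in C1 to the mean of C2 and C3 for the 47 tested proteasome genes against the length of the canonical mRNA in bases (log axis), coloured by role. Short beta core genes lie near -0.6, PSME1 is lowest at -0.98, and the long mRNAs of PSME4, NFE2L1 and PSMD1 lie above 0.

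Without control 1, 12 of the 47 genes passed in edgeR's test, in which 17.9% of all genes passed. Of these, 11 were lower, compared with 8.34% of all genes tested in that setting. They were the beta genes PSMB1, PSMB4, PSMB5, PSMB6 and PSMB7, the ATPases PSMC3 and PSMC4, ADRM1, PSMD3, PSME1 and PSMG3. PSME1 had a log2 fold change of -0.68 (adjusted p = 0.00610 in edgeR) and PSMB5 of -0.51 (adjusted p = 0.0103). NFE2L1 was the only one of the 47 to pass as higher (0.57, adjusted p = 0.0116), compared with 9.52% of all genes. No alpha gene passed in that setting, but PSMA7 (adjusted p = 0.0514 in edgeR) and PSMA5 (adjusted p = 0.0543) were just above the threshold. In none of the other 15 alternatives did any proteasome gene pass. Without control 1 the median over the 47 genes was -0.30, with 1 surrogate variable in the model it was -0.06, and with scaling by library size alone it was -0.10. Over all genes tested, the medians in these settings were 0.031, 0.0030 and 0.084 in turn.

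Genes that work with the proteasome were read from 4 further lists with 40 genes, of which 39 were tested and DDI1 was not. None passed in edgeR's test (smallest adjusted p = 0.820), and 1, OGT, had an unadjusted p under 0.05 with a higher fitted level, which 2.72% of all genes had. DESeq2 and limma-voom called none of them either. Of 13 genes listed here under receptors and shuttles, 10 had a lower fitted level (median -0.07). A lower fitted level was found in 47.9% of all genes tested. MIDN, which carries substrates without ubiquitin, had separated groups, at 263 to 288 CPM in the controls and 224 to 247 CPM with minocycline (-0.21 ± 0.12). UBQLN2, a shuttle protein, also had separated groups, at 72.1 to 73.6 CPM against 74.8 to 88.8 CPM (0.17 ± 0.12). These were the only separated genes of the 39 tested in the 4 lists, 1 below and 1 above. Such orders were found in 3.56% and 5.74% of all genes. Of 9 enzymes and cofactors bound to the proteasome, 5 had a lower fitted level (median 0.00). The deubiquitinase gene USP14 had 0.18 ± 0.14 and PITHD1 had -0.20 ± 0.14.

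Of 11 genes for partners, relatives and processing of NFE2L1, 9 had a higher fitted level, as did 8975 of all 17225 genes tested. The median of the 11 genes was 0.16, compared with 0.01 over all genes tested. OGT, the enzyme that attaches N-acetylglucosamine to intracellular proteins, had 277, 149 and 136 CPM in the controls and 316, 352 and 270 CPM with minocycline. Control 1 lay just above minocycline 3 (0.74 ± 0.25, adjusted p = 0.820 in edgeR). OGT passed without control 1, with 1 surrogate variable (0.47, adjusted p = 0.0123) and without a filter on low counts (adjusted p = 0.00597), and its adjusted p reached 1.00 over its 16 alternatives. NFE2L2, the related oxidative stress factor, had 51.8, 42.4 and 34.6 CPM against 44.4, 56.5 and 60.9 CPM (0.33 ± 0.18). For this gene too the groups overlapped through control 1. Without control 1 the change of NFE2L2 was 0.49 and passed (adjusted p = 0.0371 in edgeR), and without control 3 it was 0.19. In all, 7 of the 39 tested genes of these lists passed without control 1, compared with 17.9% of all genes. Of 6 genes for ubiquitin precursors and activating enzymes, 5 had a lower fitted level (median -0.13), compared with 47.9% of all genes tested. RPS27A, which encodes ubiquitin fused to a ribosomal protein, had a fitted change of -0.25 ± 0.20.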

How the data were processed

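The authors deposited whole-number counts per gene for 6 libraries, with no normalization and with replicates not pooled. Per the labels' protocols, libraries were made from column-purified, DNase-treated total RNA with a NEBNext Ultra II kit and sequenced as read pairs. Per the submitters' processing notes the build was hg19. For the aligner, counter, annotation, RNA selection and strandedness, the entry is: not given in the sources used here. Symbols came from a table of gene names (55538 of 57820 identifiers matched), and positions and canonical mRNA lengths from a GENCODE annotation on GRCh37, whose nuclear coordinates are those of hg19. One canonical mRNA per gene need not be the form present in these cells.

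Genes passed filterByExpr, were scaled with TMM and were tested with edgeR 4.0.16 (R 4.3.3, glmQLFit and glmQLFTest, treatment as the single term), adjusted by Benjamini-Hochberg over 17225 genes with a threshold of 0.05. The SE is the fold change divided by the root of F. Levels are mean or single-library CPM. In simulated counts on 16903 genes, 22.7% of 1.5-fold, 63.1% of 2-fold and 95.3% of 4-fold changes were recovered. These counts were drawn gene by gene, without a shift shared by the genes of a library. Changes under 1.5-fold were not simulated. The shares therefore do not give the power of the test for the proteasome genes. The alternatives were a fit with DESeq2 1.42.0, a fit with limma-voom (limma 3.58.1), scaling by RLE factors, by upper quartiles or by the library total, a filter of 10 counts or none, a test against a 1.5-fold change, the replicate block, 1 surrogate variable (sva 3.50.0) and the omission of each library. The labels give the replicate number as the batch, which pairs the libraries. As a check, deviations from group means correlated at -0.05, -0.29 and 0.30 in the same-numbered pairs. In the pairs with unlike numbers they correlated at -0.42 to 0.50, highest for control 1 with minocycline 2.

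The genes and lists were chosen with earlier results of these data known. Named genes were, in each role, those with the highest level per length, the smallest p and the largest change, plus the untested genes, the interferon-induced subunits with their partners, POMP and NFE2L1, and the first 2 by p of each further list. One gene of the further lists that this rule names is not reported here. Others were named after their values had been seen. Promoter sequences are from RefSeq (GRCh38.p14), and motif shares carry no test.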

Additional observations from a re-analysis of the deposited data

How the results depend on the processing

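The count of proteasome genes past the threshold was 0 in 15 of 16 alternatives and 12 without control 1, so that it ran from 0 to 12 over the omission of each library. For the further lists it was 1 with 1 surrogate variable and 1 without a filter on low counts (OGT in each), and from 0 to 7 with a library left out. Over all genes 9 passed, and 91 did with 1 surrogate variable, 50 with DESeq2, 3 with a minimum fold of 1.5, 94 without a filter, and 1 to 3154 with a library left out. The replicate block gave 0 proteasome genes and 13 genes in all, with a median of -0.16 over the proteasome genes, and ended or made no call among the genes described.

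The median over the proteasome genes stayed below 0 in all 16 alternatives, from -0.30 to -0.06. Of 752 values of single genes, 31 in 13 genes changed sign. With 1 surrogate variable these were PSMA1 (0.053), PSMB7 (0.010), PSMC5 (0.060), PSMD4 (0.058), PSMF1 (0.023), PSMG4 (0.074) and PSME4 (-0.21). With library size scaling, where the median over all genes was 0.084, they were PSMB10 (0.017), PSMD1 (0.045), PSMD11 (0.014), PSMD14 (0.038) and PSMG4 (0.0251). PSME4 was at -0.00958 with DESeq2, -0.00967 with RLE factors and -0.00817 without a filter. Over the omission of each library, log2 fold changes spanned -0.26 to 0.17 for PSMB10, -0.18 to 0.12 for PSMD1, -0.10 to 0.0038 for PSMD11, -0.20 to 0.028 for PSMD12, -0.12 to 0.052 for PSMD14, -0.035 to 0.14 for PSMD5, -0.16 to 0.24 for PSME4 and -0.15 to 0.016 for PSMG4. The causes were not tested. PSMB8 and PSMB9, at 0 in every library, gave no value in any setting.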
